A study of Mus musculus with 9 samples.

Results

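The kallikreins are secreted serine proteases encoded by a gene cluster on mouse chromosome 7. Messenger RNA of 4 of them, *Klk1*, *Klk1b27*, *Klk1b1*, and *Klk1b11*, was followed in single bone marrow cells of the lupus-prone NZBWF1 mouse and its parents. The 4 genes were taken by symbol from the 31053 genes of the count table, and they were chosen by the measured UMI levels of earlier results of the same data, in which kallikrein genes differed between strains in plasmacytoid dendritic cells. Their levels by strain and by cell class are therefore given as a description, with no test. The table holds 22 further genes whose symbol is Klk followed by a digit.

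The samples were femur marrow from 9 untreated female mice of 9 to 10 weeks, 3 New Zealand Black (NZB), 3 New Zealand White (NZW), and 3 of their cross (NZBWF1), with 1 droplet library per mouse. NZB and NZW are inbred strains, and NZBWF1 mice carry 1 set of chromosomes from each. The data are counts of unique molecular identifiers (UMIs), each standing for 1 captured RNA molecule read at its 3' end. After filtering, 37593 cells were left of 68444 barcodes, 2407 to 5426 per mouse, with 7858010 to 17327216 UMIs per mouse. Levels are given as UMIs per 1000000 UMIs of the same cells (CPM). Among the cells kept, 324 carried a barcode sequence also found in another library, 18 of them in the dendritic class described here.

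Tissue kallikrein, the product of *Klk1*, is known for releasing kinins, peptides that widen vessels and act in inflammation, from kininogen. The Klk1b genes are copies of *Klk1* that expanded in rodents, and several of their products process growth factors or other peptides in the salivary gland. Plasmacytoid dendritic cells (pDCs) are the dendritic cells known for high output of type I interferon on sensing nucleic acids, and their identity depends on the factor encoded by *Tcf4*, which binds the E-box sequence CANNTG.

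On the mm10 assembly, *Klk1* (ENSMUSG00000063903) lies on the plus strand of chromosome 7, from 44225360 to 44229618. *Klk1b27* (ENSMUSG00000063177, 44052290 to 44056712), *Klk1b11* (ENSMUSG00000044485, 43995877 to 43999875), and *Klk1b1* (ENSMUSG00000063133, 43966751 to 43971318) lie upstream on the same strand, and all 4 are annotated as protein coding. Since *Klk1* and *Klk1b27* were detected in the same cells, the 250 bases before their annotated starts are shown, with each E-box (CANNTG, the same on both strands) in capitals. They are from RefSeq on GRCm38.p6, the reference strain and not NZB or NZW, at chr7:44225110-44225359 for *Klk1* and chr7:44052040-44052289 for *Klk1b27*, both on the plus strand.
Klk1: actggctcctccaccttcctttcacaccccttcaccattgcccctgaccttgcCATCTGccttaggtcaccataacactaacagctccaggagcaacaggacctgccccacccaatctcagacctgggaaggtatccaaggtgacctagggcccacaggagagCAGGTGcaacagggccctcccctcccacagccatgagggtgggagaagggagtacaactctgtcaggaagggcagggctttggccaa
Klk1b27: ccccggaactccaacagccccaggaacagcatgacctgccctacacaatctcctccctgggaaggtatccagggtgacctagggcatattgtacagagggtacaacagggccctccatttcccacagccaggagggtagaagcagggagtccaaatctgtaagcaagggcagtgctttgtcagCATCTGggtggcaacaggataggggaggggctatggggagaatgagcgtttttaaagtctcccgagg
The *Klk1* stretch held 2 E-boxes and that of *Klk1b27* 1, and such a match is common, as 66.2% of 32841 promoters of this length held at least 1. In *Klk1* they were CATCTG, 197 bases before the start, and CAGGTG, 87 bases before it, with a further CATCTG from base 1 after the start, and in *Klk1b27* CATCTG lay 67 bases before the start, with a further CACCTG from base 41 after it. *Klk1b27* also held TTTAAA 17 bases before its start, a sequence present in 12.1% of promoters on either strand and not found in the 250 bases of *Klk1*, while neither held TATAAA (12.4% of promoters). Neither motif was particular to the detected genes, as every Klk1b promoter examined held 1 to 3 E-boxes and every one but that of *Klk1b21* held TTTAAA, those of *Klk1b1* and *Klk1b11* included. Over an aligned stretch of 173 bases, the 2 promoters were identical at 80.9% of positions. The promoter of *Klk1b27* was closer to those of most other Klk1b genes, and closest to *Klk1b21* (93.0%) and *Klk1b24* (90.4%). That of *Klk1* was closest to *Klk1b5* (85.9%).

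Cells were put in classes by fixed marker genes, and 2270 cells (6.04%) were pDC-like, with at least 2 of *Siglech*, *Ccr9*, *Cox6a2*, *Pacsin1*, *Smim5*, and *Upb1* detected. No kallikrein was used for this. The pDC genes checked that were not used either were highest in the class, such as *Tcf4* (2396 CPM over all pDC-like cells, compared with 561 in the next class), *Bst2* (3173 and 1036), and *Runx2* (758 and 86.3). For each of these, the next class was conventional dendritic cells, of which the rule caught only 8 cells with 23174 UMIs. The second values therefore rest on few UMIs. Other pDC genes were less apart, such as *Spib* (634 and 402 in B-cell-like cells) and *Ptprs* (268 and 242 in basophil- or mast-like cells). In 3 of 3 strains, the median pDC-like cell held at most 1 UMI of the summed markers of any other class. The class rule itself favours this, as it required a score at least 1.5 times that of the second class. It is therefore no check of the class. *Siglech* itself differed between strains, from 1387 to 1523 CPM in NZBWF1 and 2293 to 2481 in NZB to 657 to 773 in NZW, so that the class was also formed without it. The other markers ranged apart between NZB and NZW as well. *Ccr9* had 953 to 1086 CPM in NZB and 509 to 746 in NZW. *Cox6a2* went the other way (874 to 992 and 1267 to 1456), as did *Pacsin1* (238 to 330 and 395 to 518). *Smim5* (536 to 635 and 435 to 535) and *Upb1* (516 to 600 and 375 to 514) were only just apart. The class was not formed without these markers.

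*Klk1* was found almost only in pDC-like cells. Of its 7931 UMIs in kept cells, 7200 (90.8%) were in pDC-like cells, 596 were in cells left without a class, and 135 were in all other classes together, at 1.31 CPM. *Klk1b27* followed the same pattern, with 1669 of 1868 UMIs (89.3%) in pDC-like cells and 40 in all other classes. Most of the *Klk1* UMIs without a class were near the class border, as 533 cells outside pDC-like cells held 2 or more pDC markers and accounted for 563 *Klk1* UMIs. Just inside the border, the NZB cells with exactly 2 markers had 1982 CPM, compared with 3138 in NZB cells with 3 or more and 681 in the NZB cells with 2 or more markers that were left out. The same 3 values were 317, 1031, and 251 CPM in NZBWF1 and 11.2, 103, and 32.7 CPM in NZW, so that cells at the border were lower in every strain.

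**Figure D1:**
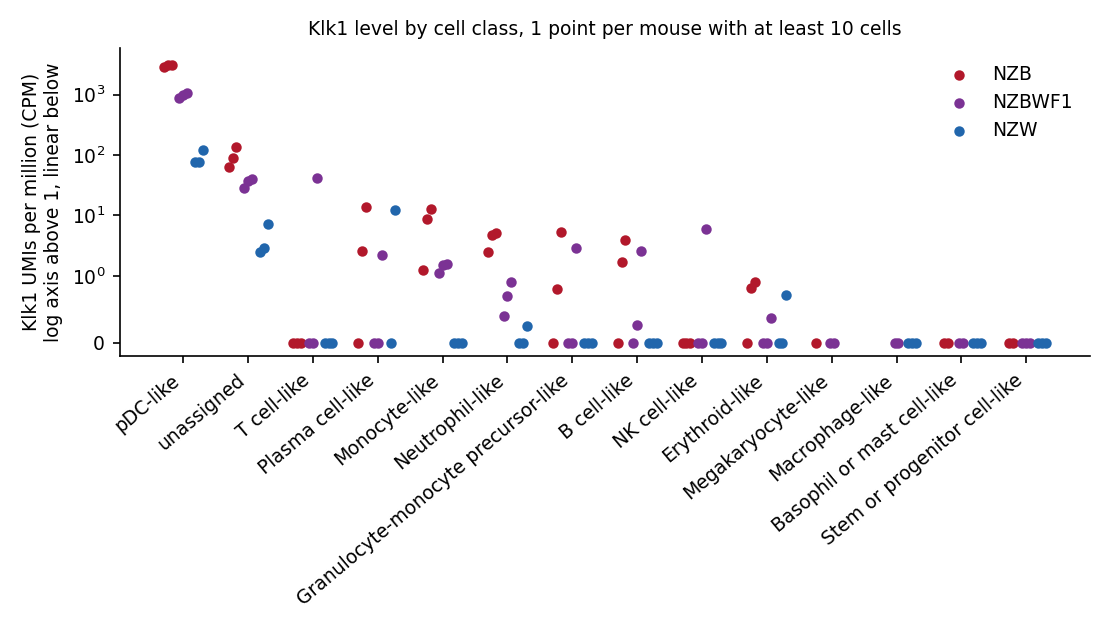
*Klk1* level in CPM by cell class, with 1 point per mouse that had at least 10 cells of the class, on an axis that is logarithmic above 1 and linear below. All 9 pDC-like points sit at 75.4 CPM or higher, and most points of the other named classes sit at 0 or within 10 CPM.

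Over the 9 mice pooled, pDC-like cells had 1790 CPM of *Klk1*. The next classes were T-cell-like cells with 6.63 CPM (6 UMIs, all in 1 of 586 cells), monocyte-like cells with 3.04 CPM (36 UMIs in 4994 cells), and plasma-cell-like cells with 2.85 CPM (8 UMIs in 287 cells). These neighbours in the order rest on few UMIs, and each includes mice at 0. Basophil- or mast-like, macrophage-like, megakaryocyte-like, and stem- or progenitor-like cells had 0 UMIs. Conventional dendritic cells, which present antigen to T cells, were caught by the marker rule in 8 cells only and were better seen as a cluster of 506 cells led by *H2-Aa* and *H2-Eb1*, where *Klk1* had 0 UMIs and *Klk1b27* 5.

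In pDC-like cells, *Klk1* was highest in NZB, intermediate in NZBWF1, and lowest in NZW. The 3 NZB mice had 3126, 2899, and 3070 CPM (1915, 2157, and 1672 UMIs), the 3 NZBWF1 mice 1072, 896, and 1001 CPM (276, 426, and 690 UMIs), and the 3 NZW mice 122, 75.4, and 76.5 CPM (29, 17, and 18 UMIs). The strains did not overlap. The means were 3032 ± 118, 990 ± 88.8, and 91.3 ± 26.6 CPM, respectively (SD, n = 3 mice each). In every strain, the mouse numbered 1 was highest and the mouse numbered 2 lowest, and the SDs and SEs leave the number aside. NZB exceeded NZW by 33.2-fold (SE 5.64), NZBWF1 exceeded NZW by 10.8-fold (SE 1.91), and NZBWF1 stood at 32.7% of NZB (SE 1.84), over all pDC-like cells and without regard to the clusters described below. As background for such differences, 8.31% of 6771 genes were called between NZB and NZW in pDC-like cells, 2.78% between NZBWF1 and NZB, and 2.17% between NZBWF1 and NZW (edgeR, adjusted p under 0.05). Nothing is read from that comparison for the kallikreins, which were chosen with it known.

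*Klk1b27* was present in NZB and NZBWF1 and not detected in NZW. The NZB mice had 640, 644, and 782 CPM (392, 479, and 426 UMIs), and the NZBWF1 mice 237, 261, and 271 CPM (61, 124, and 187 UMIs). All 3 NZW mice had 0 UMIs. The means were 689 ± 81.1 and 256 ± 17.6 CPM (SD, n = 3 mice each), so that NZBWF1 stood at 37.2% of NZB (SE 2.93). The 360 NZW cells held 0 UMIs among their 698236, and 3 UMIs over the strain, or 4.30 CPM, is the limit that a count of 0 allows. Against it, NZB was at least 160-fold higher and NZBWF1 at least 59.7-fold higher. *Klk1b27* also had 0 UMIs in every barcode of the NZW libraries, among 61146666 UMIs before filtering, where *Klk1* had 96.

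**Figure D2:**
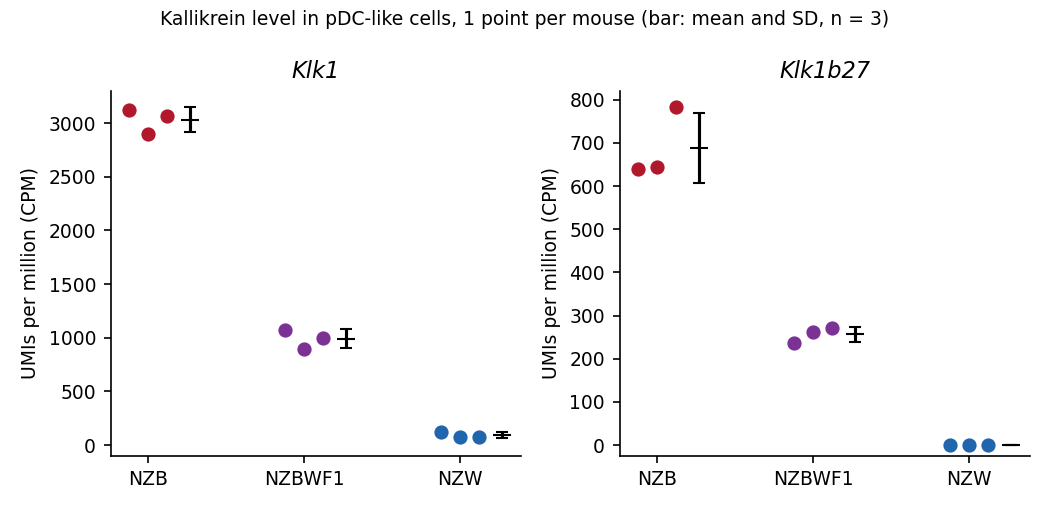
Levels of *Klk1* (left) and *Klk1b27* (right) in pDC-like cells in CPM, with 1 point per mouse and the mean and SD of 3 mice per strain. NZB sits near 3032 and 689 CPM, NZBWF1 near 990 and 256 CPM, and NZW at 91.3 and 0 CPM.

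The place of NZBWF1 between its parents depended on the scale. For *Klk1*, NZBWF1 was at 63.4% of the arithmetic mean of the parents (1561 CPM) and at 1.88 times their geometric mean (526 CPM). For *Klk1b27*, it was at 74.5% of the arithmetic mean (344 CPM). Among all pDC-like cells, both genes thus lay closer to NZW than to NZB in CPM. The distance to NZB changed with the cells kept, as the log2 ratio of NZBWF1 to NZB was -1.61 for *Klk1* and -1.43 for *Klk1b27*, compared with -2.31 for *Klk1* in cells with at most 5% mitochondrial UMIs and -0.84 for *Klk1b27* in cells with at least 2000 UMIs and 1000 genes. In those deeper cells the order of distances was turned for *Klk1b27*, which lay closer to NZB than to the 0 of NZW.

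The share of pDC-like cells with a *Klk1* UMI followed the same order. It was 84.4% to 90.6% per mouse in NZB, 64.1% to 70.2% in NZBWF1, and 10.1% to 19.8% in NZW, at a median of 1259 to 2418.5 UMIs per cell. Neutrophil-like cells, taken here as cells that should lack the gene, had a mean of 0.464% in NZB, 0.167% in NZBWF1, and 0.0203% in NZW at a median of 2150 to 2565 UMIs, so that the NZW pDC-like cells were far above their own background. *Klk1b27* was found in 54.3% to 70.4% of NZB cells and 34.2% to 37.5% of NZBWF1 cells, and in 0 of 360 NZW cells from 3 mice, which allows a share of cells with a UMI of up to 0.833% and sets no limit on cells that express the gene at a low level. When every cell was thinned to 1000 UMIs to remove differences in depth, the means for *Klk1* were 81.6%, 50.3%, and 8.62% in NZB, NZBWF1, and NZW, and those for *Klk1b27* were 49.8%, 22.9%, and 0%.

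**Figure D3:**
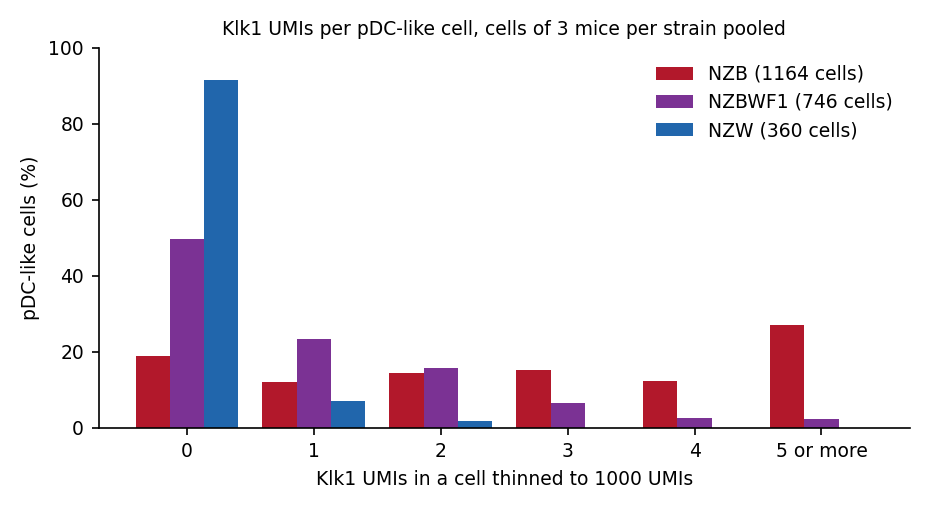
Percent of pDC-like cells of each strain by their number of *Klk1* UMIs after thinning to 1000 UMIs per cell, with the cells of 3 mice pooled. At 5 or more UMIs stand 27.1% of NZB and 2.28% of NZBWF1 cells, and 91.4% of NZW cells are at 0.

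The highest single cell had 23 *Klk1* UMIs in NZB, 14 in NZBWF1, and 4 in NZW, before thinning. The thinned NZB cells averaged 3.04 to 3.26 *Klk1* UMIs per mouse, for which equal cells with random capture would leave 3.84% to 4.77% at 0, and 16.8% to 20.5% were at 0. In NZBWF1, 0.947 to 1.003 UMIs per cell would leave 36.7% to 38.8% at 0, and 49.3% to 50% were. *Klk1b27* was nearer to its random share, with 45.4% to 53.5% of NZB cells at 0 compared with 43.7% to 51.8%. In NZW, *Klk1* was at 0 in 89.7% to 92.5% of cells compared with a random 89.4% to 91.0%, at 0.0943 to 0.112 UMIs per cell. In NZB and NZBWF1, *Klk1* thus left more pDC-like cells of a mouse at 0 than equal cells with random capture would. In NZW, and for *Klk1b27* in NZB, the share was near the random one. At 0.0943 to 0.112 UMIs per cell, most NZW cells are at 0 either way, so their share cannot tell equal from unequal cells. *Klk1b27* in NZB, at 0.657 to 0.829 UMIs per cell, was a weaker check than *Klk1* at 3.04 to 3.26.

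Most cells with *Klk1b27* also had *Klk1*, and fewer of the cells with *Klk1* had *Klk1b27*. Of the 725 NZB pDC-like cells with *Klk1b27*, 684 also had *Klk1* (94.3%), and of the 261 NZBWF1 cells with *Klk1b27*, 202 did (77.4%), where *Klk1* itself was found in 87.0% and 65.1% of all pDC-like cells. A further 329 NZB and 284 NZBWF1 cells had *Klk1* without *Klk1b27*, and in NZBWF1 these outnumbered the cells with both. Of the UMIs of both genes together, *Klk1b27* made up 17.0%, 18.2%, and 20.3% in the NZB mice and 18.1%, 22.5%, and 21.3% in the NZBWF1 mice. The strains overlapped in this share. In NZW, the share was 0 of 64 UMIs, which allows up to 4.69%, so that a share as in NZB would have been detectable.

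Leiden clustering without the kallikrein genes split the pDC-like cells chiefly into cluster 8 (940 NZB, 494 NZBWF1, and 114 NZW cells) and cluster 13 (173, 222, and 214 cells). Cluster 8 was led by *Siglech*, *Ccr9*, *Cd209d*, and *P2ry14* beside the kallikreins, and cluster 13 by *Cox6a2*, *Runx2*, *Ly6d*, and *Cd7*. In cluster 8, *Klk1* was at 3734 ± 32.1 CPM in NZB, 1359 ± 116 in NZBWF1, and 204 ± 59.1 in NZW (SD, n = 3 mice each). In cluster 13 it was at 791 ± 61.8, 375 ± 95.5, and 55.3 ± 11.8 CPM. The order of the strains was therefore the same in both, with NZBWF1 at 36.4% of NZB in cluster 8 and 47.4% in cluster 13, and NZW at 5.47% and 6.99%. The difference between NZB and NZW was thus smaller within each cluster than the 33.2-fold over all pDC-like cells, in which NZB cells were mostly of cluster 8 and NZW cells mostly of cluster 13. *Klk1* was 4.72-fold higher in cluster 8 than in cluster 13 in NZB, 3.62-fold in NZBWF1, and 3.69-fold in NZW.

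**Figure D4:**
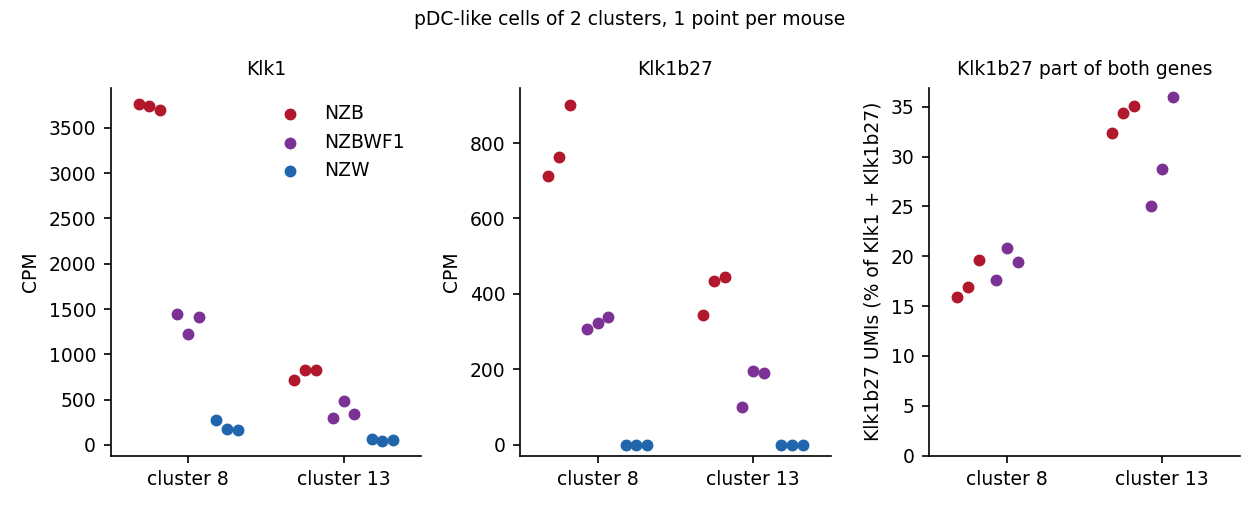
*Klk1* level (left, CPM), *Klk1b27* level (middle, CPM), and the percent of the UMIs of both genes that are *Klk1b27* (right) in pDC-like cells of clusters 8 and 13, with 1 point per mouse. The percent lies between 16% and 20.9% in cluster 8 and between 25% and 35.9% in cluster 13, and NZW is left out of it because *Klk1b27* was at 0 there.

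*Klk1b27* differed less between the clusters than *Klk1*. It was at 793 ± 97.7 CPM in cluster 8 and 408 ± 55.8 in cluster 13 in NZB, and at 323 ± 16.3 and 162 ± 53.2 in NZBWF1, which is 1.94-fold and 1.99-fold (n = 3 mice each). Its part in the UMIs of both genes was accordingly higher in cluster 13 in 6 of 6 mice with the gene, as in NZB 1 with 16% (95% Wilson interval 14.5% to 17.6%) in cluster 8 and 32.3% (23.9% to 42.0%) in cluster 13. The smallest such counts were in NZBWF1 1, with 6 of 24 UMIs in cluster 13. Cluster 12, with the proliferation gene *Mki67* at 1374 CPM in its pDC-like cells, held 27 *Klk1* UMIs in 50 NZB cells, 2 in 28 NZBWF1 cells, and 0 in 32 NZW cells. Intervals cover counting error only.

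The 2 remaining genes were at the edge of detection. *Klk1b1* had 1 UMI in the whole table of kept cells, in an NZB 2 pDC-like cell of cluster 8 that also had 6 *Klk1* UMIs. *Klk1b11* had 1 UMI in kept cells, in an NZBWF1 2 pDC-like cell of cluster 13 with 0 *Klk1* UMIs. In addition, 1 barcode of NZB 2 held 8 *Klk1b11* UMIs. It had been removed as a doublet and held 3224 UMIs in all. Of the stem or progenitor markers, it carried 1 UMI each of *Kit* and *Procr* and 0 UMIs of *Cd34*, *Hlf*, *Meis1*, and *Mecom*. It also held 1 UMI of *Klk1b27* and 0 UMIs of *Klk1* and *Siglech*, and 1 of the 6 pDC markers was detected in it. No level or strain difference can be given for either gene at this depth.

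Of the 22 other Klk genes, 6 had any UMI in pDC-like cells, and none reached the count needed for the test. *Klk1b9*, whose product is also known as an epidermal growth factor binding protein, had 3, 6, and 2 UMIs in NZB, 0 in each NZW mouse, and 1, 0, and 1 in NZBWF1. Of its 15 UMIs in kept cells, 13 were in pDC-like cells. *Klk8*, which encodes neuropsin, a protease known from brain and skin, was placed elsewhere. It had 26 UMIs in pDC-like cells and 655 in other classes, with 112 ± 48.2 CPM in T-cell-like cells (SD, n = 9 mice), 89.3 ± 36.6 in stem- or progenitor-like cells (n = 8 mice), 51.7 ± 6.63 in megakaryocyte-like cells (n = 3 mice), 40.4 ± 28.8 in basophil- or mast-like cells (n = 7 mice), and 16.1 ± 3.24 in granulocyte-monocyte precursors (n = 9 mice). The levels in T-cell-like and stem- or progenitor-like cells do not differ beyond their spread. Between strains, the *Klk8* levels of T-cell-like cells overlapped, with 114 ± 75.1 CPM in NZB, 109 ± 58.1 in NZW, and 114 ± 15.7 in NZBWF1 (n = 3 mice each). In B-cell-like cells the means were 2.99, 11, and 7.25 CPM in the same order. The difference between NZB and NZW there did not pass the test (log2 fold change -2.01, SE 0.67, adjusted p = 0.115, edgeR, 3.05% of 9772 genes called).

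Reads of near-identical copies can be assigned to the wrong gene or lost. The *Klk1* and *Klk1b27* transcripts of the reference were 84.0% identical, and among all windows of 90 bases in the last 500 bases of *Klk1*, none occurred in *Klk1b27*. Of these windows, 13.6% were shared with another kallikrein transcript, in each case *Klk1b5*, which had 2 UMIs in pDC-like cells. For *Klk1b27*, 5.84% of the windows were shared, most with *Klk1b21* (1 UMI in pDC-like cells). For *Klk1b1* and *Klk1b11*, 0% were shared. How far NZB and NZW sequences differ from the reference in these stretches was not tested.

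The kinin pathway was largely undetected in pDC-like cells. Of 18 genes for kinin production, receptors, and breakdown, 6 had a UMI, and the kininogens *Kng1* and *Kng2* and the receptors *Bdkrb1* and *Bdkrb2* had 0. Only 2 genes, both peptidases, had enough UMIs for the test. *Prcp*, a lysosomal carboxypeptidase known to cleave angiotensin and bradykinin peptides, had 163, 188, and 235 CPM in the NZB mice, 124, 160, and 164 in the NZBWF1 mice, and 54.7, 138, and 72.2 in the NZW mice. All NZB mice were above all NZW mice. *Prcp* was higher in NZB than in NZW (log2 fold change 1.20, SE 0.21, adjusted p = 4.5e-06, edgeR) and higher in NZBWF1 than in NZW (0.85, SE 0.22, adjusted p = 0.0138, edgeR). The first call was lost in cells with at least 2000 UMIs and 1000 genes. The second call was lost in 8 of 20 alternatives, among them leaving out NZW 1, NZW 3, or NZBWF1 3 and DESeq2. NZBWF1 and NZB were not called different (-0.35, SE 0.15, adjusted p = 0.312, edgeR). *Dpp4*, another peptidase, had 65.8 ± 11.6 CPM in NZB, 48.5 ± 23.4 in NZBWF1, and 71.8 ± 11 in NZW (n = 3 mice each) and was called in none of the comparisons of 2 strains (unadjusted p = 0.212 to 0.730, edgeR).

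Genes of pDC identity and function moved in both directions between the parents. Of 30 such genes, 27 were tested and 14 (51.9%) passed between NZB and NZW, 6 higher and 8 lower in NZB, beside 8.31% of all genes tested (4.09% higher, 4.22% lower). Their median log2 fold change was -0.07, compared with 0.00 over all genes. The 2 shares were not matched for UMI counts, which were 12760 for *Bst2* and 9635 for *Tcf4* of the list. The list was also chosen with earlier results of these data known. Several of these genes also differed in level between clusters 8 and 13 over all strains, such as *Cd4* (331 and 45.1 CPM) and *Runx2* (698 and 958 CPM), and the part of the clusters in these calls, and in those of *Prcp* and of the chromosome 7 genes described below, was not tested. Without NZW 3, 7 genes passed. *Ly6c2*, a surface marker of myeloid cells and pDCs, had 194, 212, and 231 CPM in NZB, 420, 530, and 612 in NZBWF1, and 1154, 1287, and 1049 in NZW. The strains did not overlap, in the order opposite to that of *Klk1*. The log2 fold change was -2.40 (SE 0.12, adjusted p = 6.5e-41, edgeR) between NZB and NZW. *Mzb1*, a chaperone of antibody-secreting cells and pDCs, was lower in NZB by a log2 fold change of -1.14 (SE 0.18, adjusted p = 2.3e-07, edgeR). *Runx2*, a transcription factor for the exit of pDCs from marrow, was lower as well (-0.57, SE 0.11, adjusted p = 2.1e-05, edgeR). *Cd4* was higher in NZB (1.16, SE 0.17, adjusted p = 9.5e-09, edgeR), as was *Ptprs*, a phosphatase receptor on pDCs (0.69, SE 0.15, adjusted p = 0.000298, edgeR). In cells with at least 2000 UMIs and 1000 genes, only *Ly6c2* of the 5 genes named here kept its call between NZB and NZW.

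Against NZB, 4 of the 27 genes passed in NZBWF1, all higher, beside 2.78% of all genes (1.46% higher, 1.31% lower). Among them were *Ly6c2* (log2 fold change 1.31, SE 0.12), *Mzb1* (1.001, SE 0.16), and *Atp1b1*, a subunit of the sodium pump (0.52, SE 0.11). Against NZW, 4 passed beside 2.17% of all genes (1.08% higher, 1.09% lower), among them *Cd4* (0.86, SE 0.18) and *Ptprs* (0.53, SE 0.16) higher and *Ly6c2* (-1.10, SE 0.11) lower in NZBWF1. Leaving out NZB 2 ended the call of *Atp1b1*. In cells with at least 2000 UMIs and 1000 genes, the calls of *Mzb1* and *Atp1b1* against NZB were lost. Those of *Cd4* and *Ly6c2* against NZW were lost there too, while that of *Ly6c2* against NZB was kept. With at most 5% mitochondrial UMIs, the calls of *Atp1b1* against NZB and of *Cd4* against NZW were lost. The call of *Ptprs* against NZW was kept in 9 of 20 alternatives, and without NZW 2 or without NZW 3, 2 genes of the list passed against NZW.

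Genes next to the kallikrein cluster were examined because the parents can differ over a whole stretch of a chromosome. The window held the 4 genes and 2 Mb on each side (chromosome 7, 41966751 to 46229618), with 171 genes that are not kallikreins, of which 97 had a UMI in pDC-like cells and 44 were tested. Between NZB and NZW, 9 of 44 (20.5%) passed, 6 higher and 3 lower in NZB, beside 8.31% of all genes. The median log2 fold change was -0.06, compared with 0.00 over all genes.

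**Figure D5:**
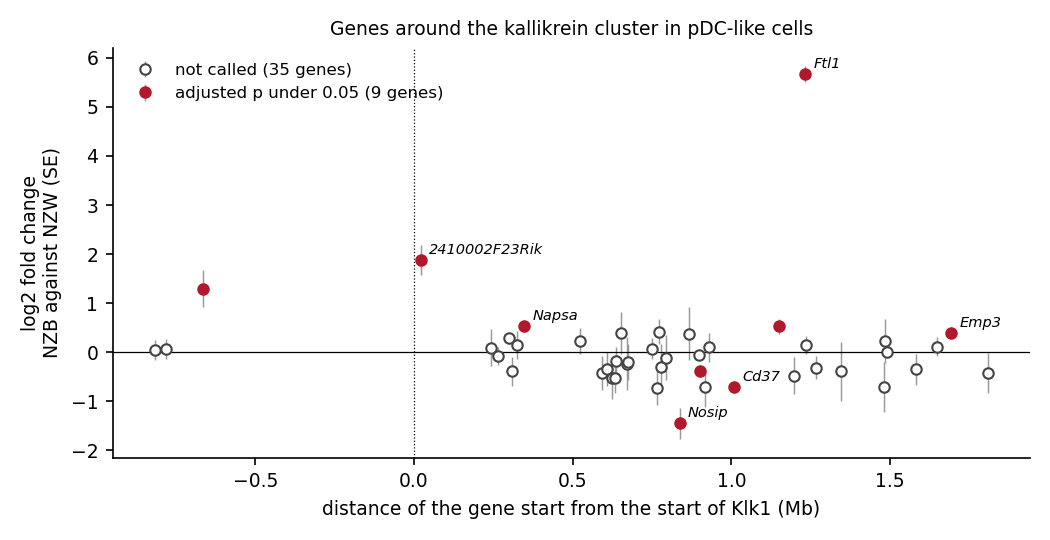
Log2 fold change of NZB against NZW with SE in pDC-like cells for the 44 tested genes within 2 Mb of the kallikrein genes, by the distance of the gene start from the start of *Klk1* in Mb. Filled points mark the 9 genes with adjusted p under 0.05, the 6 of smallest p are named, and the other 35 did not pass.

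The tested gene nearest to *Klk1* was *2410002F23Rik*, which starts 21.4 kb away. It had 116, 106, and 84.5 CPM in NZB, 73.8, 46.3, and 50.8 in NZBWF1, and 16.8, 39.9, and 29.7 in NZW, in the same order of strains as *Klk1* and without overlap. It was higher in NZB than in NZW (log2 fold change 1.88, SE 0.30, adjusted p = 2.4e-07, edgeR) and lower in NZBWF1 than in NZB (-0.95, SE 0.21, adjusted p = 0.00138, edgeR). The call of *2410002F23Rik* between NZBWF1 and NZB was kept in 17 of 18 alternatives and lost in DESeq2. *Ftl1*, the light chain of ferritin, starts 1233 kb away and had 2873, 2591, and 2622 CPM in NZB, 1107, 1146, and 1148 in NZBWF1, and 54.7, 75.4, and 34 in NZW. This was the largest difference between NZB and NZW among the 44 neighbours tested (5.67, SE 0.16, adjusted p = 1.2e-82, edgeR), and *Ftl1* has near-identical copies, so that its assignment is uncertain. Between NZB and NZW, *Napsa* (0.53, SE 0.13) and *Emp3* (0.39, SE 0.11) were higher in NZB, and *Nosip* (-1.45, SE 0.32) and *Cd37*, a tetraspanin of leukocytes (-0.71, SE 0.12), were lower. The call of *Emp3* was kept in 14 of 20 alternatives and lost, among others, in DESeq2 and without NZB 2, NZW 2, or NZW 3. That of *Cd37* was kept in 18 of 20, was lost with the depth and mitochondrial filters, and had the other sign in 1. That of *Napsa* was lost with the depth filter. In NZBWF1, 5 of the 44 genes passed against NZB (2 higher, 3 lower; 11.4%, beside 2.78% of all genes) and 1 against NZW (2.27%, beside 2.17% of all genes). The first count was 3 without NZB 1 or without NZBWF1 3, and the second was 2 without NZBWF1 1. *Fcgrt*, the receptor that recycles antibodies, was lower in NZBWF1 than in NZB (-2.10, SE 0.58, adjusted p = 0.0197, edgeR), with 0 to 4 UMIs in each NZBWF1 mouse and 6 to 19 in each NZB mouse. The call of *Fcgrt* was lost without NZBWF1 1 and in DESeq2. Against the mean of the parents on the log scale, 0.591% of all genes passed (0.502% higher, 0.0886% lower), and 1 of the 44 neighbours did, *Ftl1* with a log2 difference of 1.57 (SE 0.12, adjusted p = 3.5e-26, edgeR).

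Over 103 sums of cells by class and mouse, the 5 genes of 7566 whose log2(CPM + 1) was most like that of *Klk1* were *Gm21762* (Pearson r = 0.92), *Prss30* (0.92), *Sh3bgr* (0.90), *Cd209d* (0.90), and *Rab6b* (0.90), and r was 0.84 for *Klk1b27*. These sums share libraries and classes, so that r is a description. In pDC-like cells, *Gm21762* had 130 ± 8.85 CPM in NZB, 80.4 ± 8.52 in NZBWF1, and 27.3 ± 13.2 in NZW, and *Cd209d* had 381 ± 24.3, 385 ± 16.2, and 203 ± 44.4 (SD, n = 3 mice each). *Prss30*, *Sh3bgr*, and *Rab6b* were within their spread between NZB and NZBWF1.

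The share of pDC-like cells among the cells kept differed between strains as well. They made up 11.2% ± 1.67 of the cells in NZB, 5.36% ± 1.23 in NZBWF1, and 2.60% ± 0.184 in NZW (mean ± SD). A two-sided exact permutation test, in which the 9 mice can be split in 280 ways, gave p = 0.00357, the smallest it can give. No pair of strains overlapped among the cells kept, and each pair gave p = 0.1, the smallest an exact permutation of 3 against 3 mice can give. The share changed with both filters on cells. In cells with at least 2000 UMIs and 1000 genes, it was 11.7%, 1.61%, and 3.64% in NZB 1, 2, and 3, 9.70%, 1.48%, and 4.13% in the NZBWF1 mice, and 3.54%, 0.713%, and 1.89% in the NZW mice, so that the strains overlapped and the difference did not pass (exact permutation, p = 0.486). NZW was lowest within each of the 3 replicate numbers, and mice numbered 2 were lowest and mice numbered 1 highest in every strain. With strains exchanged only within a number, an exact permutation chosen after seeing the data gave p = 0.0833, and p = 0.0278 among all cells kept, the smallest it can give. The medians of UMIs per pDC-like cell were likewise lowest in the mice numbered 2, with 1930, 1259, and 1724 in NZB, 2418.5, 1594.5, and 1810.5 in NZBWF1, and 2036, 1534, and 1860 in NZW. The other cells had medians of 2542 to 2731.5 in NZB, 2109 to 2320 in NZBWF1, and 2196 to 2296 in NZW. A share also depends on the other classes. B-cell-like cells were 747 of 10504 cells kept in NZB, 3427 of 13244 in NZBWF1, and 3598 of 13845 in NZW. The part of this in the pDC-like share was not tested.

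The median mitochondrial percent of pDC-like cells was 5.77 to 6.24 in NZB, 6.52 to 7.28 in NZBWF1, and 6.23 to 6.93 in NZW. The other cells were lower, with 2.34 to 3.59 in NZB, 4.12 to 4.42 in NZBWF1, and 4.10 to 4.66 in NZW. pDC-like cells were thus nearer to the limit of 10% for cells kept, and its part in their share was not tested. In cells with at most 5% mitochondrial UMIs, the pDC-like share fell to 3.30% in NZB, 0.701% in NZBWF1, and 0.376% in NZW (exact permutation, p = 0.0107, and p = 0.0556 within replicate numbers). NZB stayed above both other strains in 3 of 3 mice, while NZBWF1 (0.224% to 0.942%) overlapped NZW (0.188% to 0.524%).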

How the data were processed

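Femur marrow cells of 9 mice were profiled with droplet-based 3' single-cell RNA sequencing. The deposited table holds UMI counts per gene and barcode, which the authors made from the reads with bcl2fastq 2.20 and Cell Ranger 3.1.0 on mm10 and merged over the libraries, per the labels. No source used here says whether that merge evened out the reads per library. The suffix of each barcode was read as the position of its library in the deposited aggregation list.

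The 4 kallikrein genes and all gene lists were chosen with earlier results of these data known. Barcodes were kept from 1000 UMIs and 500 genes upward if no more than 10% of their UMIs were mitochondrial. Doublet scores were computed with scrublet in scanpy 1.11.5 (Python 3.11.15), and the top 0.8% per 1000 barcodes were removed. A cell was given a class when it had at least 2 of the class's markers and its score was at least 1.5 times that of the second class. Leiden clusters (2000 variable genes without kallikreins, 30 components, 15 neighbours, resolution 2) served as an alternative. UMIs of a class were added up within each mouse, leaving out mice that had under 10 such cells.

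Levels are CPM of these sums, with ratio errors by the delta method. All genes of pDC-like cells were tested with edgeR 4.0.16 in R 4.3.3 (TMM factors, filterByExpr, robust quasi-likelihood test, Benjamini-Hochberg adjustment, threshold 0.05), with 1 coefficient per strain. DESeq2 1.42.0 was an alternative. On simulated counts for NZB against NZW with 6502 genes, edgeR recovered 196 of 200 genes changed 4-fold and called 8 others. The changed genes were drawn from those of higher level, and every gene had the same dispersion. The recovery therefore does not cover genes with few UMIs. Shares were tested by exact permutation of mice. Thinning drew 1000 UMIs per cell. Intervals are 95% Wilson intervals, the limit of a 0 is 3 UMIs, and both cover counting error only.

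Genes named were the 4 kallikreins, other Klk genes with at least 10 UMIs in pDC-like cells, at most the 6 listed genes of smallest p per list and comparison, and the 5 genes most like *Klk1* among those with at least 50 UMIs. Of these, 1 gene is not reported here. *Dpp4*, *Klk1b5*, *Klk1b21*, the undetected kinin genes, and the gate, label, and cluster genes were named beside them after their values were seen. The fit of *Klk8* in other classes, the levels within clusters, the discarded barcodes, and the permutation of shares within replicate numbers were added after seeing the data. Expression deviations did not pair the mice by replicate number, so no block entered the edgeR tests reported, although UMIs per pDC-like cell and the level of *Klk1* followed the number.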

Additional observations from a re-analysis of the deposited data

Results flagged for a closer look

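*Klk1* also appeared in barcodes that entered no comparison. In barcodes with under 100 UMIs, which hold mostly RNA from outside intact cells, it stood at 138, 188, and 129 CPM in the NZB mice and at 32.0, 53.6, and 31.5 CPM in the NZBWF1 mice, compared with 3.13, 1.52, and 1.78 CPM in the NZW mice. In discarded barcodes with 2 or more pDC markers, *Klk1* stood at 1786, 3090, and 3853 CPM in NZB (30, 95, and 20 barcodes) and at 996, 941, and 1102 CPM in NZBWF1 (7, 33, and 21 barcodes), compared with 0, 0, and 67.8 CPM in NZW (4, 15, and 10 barcodes). In both sets, all NZB mice exceeded all NZW mice, as in the cells kept, and NZB 1 in the second set stood below the other NZB mice. A single NZB 2 barcode removed as a doublet held 8 *Klk1b11* UMIs, more than the 1 UMI in all cells kept. These signals were singled out because they lie outside the comparisons and above the level in NZW or the limit of 3 UMIs.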

How the results depend on the processing

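Each result that answers a comparison was set beside each alternative. Of these pairings, 177 stayed the same, 23 moved, 3 no longer passed the threshold, and none was reversed. The calls of single genes are not in this count. Several of them were lost under alternatives, as given above, and *Cd37* between NZB and NZW had the other sign in 1. In cells with at least 2000 UMIs and 1000 genes, the log2 ratio of NZBWF1 to NZB was -1.24 for *Klk1* (reported -1.61) and -0.84 for *Klk1b27* (reported -1.43), the pDC-like share gave p = 0.486 (exact permutation), and 7, 10, 12, and 43 genes were called for NZBWF1 compared with the parents' log mean, with NZB, and with NZW, and for NZB compared with NZW (reported 40, 188, 147, and 563). With at most 5% mitochondrial UMIs, the ratios were -2.31 and -1.69 and the counts 7, 58, 24, and 194. That setting left NZW 2 and NZBWF1 1 with under 10 cells, so they were left out, and *Klk1* was at 0 in the NZW mice left, so that no NZW ratio was computed. DESeq2 called 18, 76, 89, and 300 genes and 5 of the chromosome 7 neighbours (reported 9). The cause of these changes was not tested. Leaving out 1 mouse at a time, the log2 ratios ranged from -1.68 to -1.55 (*Klk1*, NZBWF1 to NZB), -5.32 to -4.93 (*Klk1*, NZW to NZB), 3.32 to 3.70 (*Klk1*, NZBWF1 to NZW), and -1.48 to -1.32 (*Klk1b27*, NZBWF1 to NZB), and the share gave p = 0.00357 to 0.00714 (exact permutation). The counts ranged from 29 to 53, 121 to 186 (121 without NZB 2 or without NZBWF1 2), 79 to 165 (79 without NZW 3), and 366 to 638 (366 without NZW 3), with 7 to 15 pDC function genes (7 without NZW 3) and 6 to 9 neighbours between NZB and NZW. Same-numbered mice did not deviate together over 1802 genes (correlations -0.089 to 0.094), although *Klk1* itself followed the number in every strain. With the replicate number as a block 65 genes were called compared with the parents' log mean, while the other 3 comparisons gave 202, 173, and 581. For the pDC-like share, the block gave p = 0.0278, and p = 0.0833 and 0.0556 with the depth and mitochondrial filters (exact permutation). Depth limits *Klk1b1*, *Klk1b11*, and *Klk1b9*, and NZW levels rest on 64 *Klk1* UMIs.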
